A study of Mus musculus with 12 samples.

Results

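The 10 genes described here were Zfp36, Zfp36l1 and Zfp36l2, Tob1 and Tob2, Btg1 and Btg2, and Ier2, Ier3 and Ier5. They were chosen by name, as early-response genes that act in mRNA decay or hold back proliferation, from the 55335 genes of a table of read counts, and each symbol had 1 row. The choice was made with genotype results of these libraries in view, and which values weighed in it is not recorded, so counts over the 10 genes are a description and support nothing about them as a group. The table held 12 mouse libraries in 4 groups of n = 3. BMDMs (bone-marrow-derived macrophages) came from male Tshr f/f mice, in which loxP sites flank part of both copies of the TSH receptor gene, or from Tshr MKO littermates, which carried Tshr f/f together with Lyz2-Cre. The labels give the donors' age as 6 weeks, while the methods of the study give a range of ages that starts there. Both BMDM groups had been grown for 7 days with M-CSF at 10 ng/mL and had received TSH (thyroid-stimulating hormone) at 1 ng/mL for 24 h, and no library without TSH was analysed here. Livers came from male littermates of both genotypes that had started a high-fat diet at an age of 6 weeks, stayed on it for 9 weeks, and were killed 5 min after insulin at 1.5 U/kg, following an 8-h fast. The genotypes are written f/f and MKO below. Lyz2-Cre is active in macrophages, monocytes and neutrophils and not in hepatocytes, so hepatocytes of MKO livers would keep the receptor gene.

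ZFP36 (tristetraprolin), ZFP36L1 and ZFP36L2 are zinc finger proteins that bind AU-rich elements in the 3' untranslated region (UTR) of short-lived mRNAs, such as those of cytokines, and bring in the CCR4-NOT complex, which removes the poly(A) tail. BTG and TOB proteins share a domain that contacts the deadenylases of the same complex, and they slow cell division. The IER genes are immediate-early genes, switched on within minutes by growth factors and inflammatory signals: IER3 is tied to cell survival and NF-kappaB signaling, while IER2 and IER5 act in the nucleus. In macrophages ZFP36 is known as a brake on TNF production.

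The AU-rich element is shown first, because it is the sequence that the proteins of 3 of these genes read. In GENCODE M21 (GRCm38) the nonamer TTATTTATT was searched on the sense strand of the longest annotated 3' UTR of each gene. It occurred 1 time each in Zfp36, Zfp36l1 and Zfp36l2 and 0 times in the other 7 genes. Of 21020 genes with a protein-coding 3' UTR, 7.66% held it. Among genes with a 3' UTR of similar length (0.8 to 1.25 times) the share was 4.18% for Zfp36, 10.2% for Zfp36l1 and 10.0% for Zfp36l2. The match is a description and was not tested as a binding site. The 3 sites are printed with 10 bases on either side, the nonamer in capitals.
Zfp36, chr7:28376951-28376979 (minus strand): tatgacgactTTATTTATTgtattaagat
Zfp36l1, chr12:80108167-80108195 (minus strand): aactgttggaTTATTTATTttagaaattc
Zfp36l2, chr17:84184914-84184942 (minus strand): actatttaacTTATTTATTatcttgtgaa

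The promoter windows of RefSeq (GRCm38.p6) held 8 of the 10 genes, and Ier2 and Zfp36l2 were not among them. The 250 bases before the start were searched on both strands for the core of the serum response element, the cAMP response element (CRE) TGACGTCA, the AP-1 site TGACTCA and the EGR site GCGGGGGCG. The serum response element core was found in Zfp36, against 1.47% of all 32851 windows, and the EGR site also in Zfp36, against 2.57%. The CRE was found in Btg2, against 1.55% of all windows, and the AP-1 site in 0 of the 8, against 4.46%. A search for the letters TATAA, on the sense strand of the last 50 bases, was added after the sequences had been seen. They were in Zfp36l1, Tob1, Btg1 and Ier5, 4 of the 8, against 4.93% of all windows. In Ier3 the same letters lay upstream of those 50 bases and were not counted. Below, the capitals mark the letters of the motifs. Zfp36 is shown for its serum response element core, 58 to 49 bases before the RefSeq start, with 10 bases on either side only, because GENCODE also annotates a longer transcript whose first exon covers that window. Its EGR site lay 105 to 97 bases before the start. The whole window of Btg2 is shown for its CRE, 166 to 159 bases before the start, since the TSH receptor is known to signal through cAMP, and that of Tob1 for the largest difference between the labelled liver groups described below, with TATAA 47 to 43 bases before the start. None of the marked motifs overlapped another. They are a description, and neither binding at them nor a part in any difference was tested.
Zfp36, chr7:28379267-28379296 (minus strand): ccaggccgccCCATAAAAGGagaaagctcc
Btg2 promoter, chr1:134079156-134079405 (minus strand): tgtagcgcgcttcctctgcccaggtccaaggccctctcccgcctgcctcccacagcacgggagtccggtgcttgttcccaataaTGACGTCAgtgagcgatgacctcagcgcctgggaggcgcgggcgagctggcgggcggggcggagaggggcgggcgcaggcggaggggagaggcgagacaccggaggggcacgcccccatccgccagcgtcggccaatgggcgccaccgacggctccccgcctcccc
Tob1 promoter, chr11:94211204-94211453 (plus strand): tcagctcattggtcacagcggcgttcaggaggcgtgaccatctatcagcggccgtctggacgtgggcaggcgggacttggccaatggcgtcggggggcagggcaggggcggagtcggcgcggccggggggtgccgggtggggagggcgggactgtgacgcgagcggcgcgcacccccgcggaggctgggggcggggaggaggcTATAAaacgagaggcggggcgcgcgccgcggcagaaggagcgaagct

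All 10 genes were short and had few exons, which the choice by name did not use. The transcript with the most exons had 1 exon in Ier2 and Ier5, 2 in Zfp36, Zfp36l2, Tob1, Btg1, Btg2 and Ier3, and 3 in Zfp36l1 and Tob2. Of 14167 protein-coding genes tested in BMDMs or liver, 12.1% had at most 3 exons, and the median was 9. The median span of the 10 genes was 3.98 kb, against 23.8 kb over those genes. Annotated genes on the opposite strand covered 55.9% of the exon bases of Zfp36l1 and 2.97% to 4.34% of those of Zfp36, Zfp36l2 and Tob2. The libraries were strand-specific, but whether the counting used strand is not given in the sources used here, so the counts of Zfp36l1 are the least certain of the 10.

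The libraries held 28962878 to 40954211 counts each. Normalized values are CPM (counts scaled to library size, with TMM factors), log2 fold changes are from edgeR quasi-likelihood tests with their standard error (SE), and p-values were adjusted over all genes tested. Hepatocyte markers summed to 0 to 0.0783 CPM in the BMDMs and to 75714 to 100280 CPM in the livers, and all 6 macrophage markers were present in every BMDM group, so the labelled materials carried their defining genes. Counts of Tshr itself were 0, 0 and 2 for f/f BMDMs, 0, 0 and 5 for MKO BMDMs and 0 for every liver, and the deletion could not be checked. In 1 respect the liver labels were contradicted: a supplementary list of receptor counts by liver group gave 72 values, and all 72 equal a count of a library that the labels place in the other group, while 8 equal one in the group of the heading. The groups are therefore called livers labelled f/f and livers labelled MKO, and each liver difference would turn its sign under those headings. Among the BMDMs, f/f replicate 3 stood apart, with a normalization factor of 0.738 against 0.993 to 1.11 in the other 5 and with 6441 CPM of Tnf, against 973 and 92.5 CPM in the other f/f libraries.

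In TSH-treated BMDMs 5 of the 10 genes had a lower and 5 a higher fitted level in MKO. Zfp36l1, Zfp36l2 and Ier5 were higher in every MKO library than in any f/f library, while Zfp36, Btg1, Ier2 and Ier3 had their highest value in f/f replicate 3. In edgeR 0 of the 10 passed an adjusted p of 0.05, and so did 0% of the 15372 genes tested. At an unadjusted p under 0.05, 1 of the 10 was lower (Btg1) and 2 were higher (Zfp36l1 and Zfp36l2), against 10.2% lower and 7.73% higher of all genes. DESeq2 gave 1 of the 10, Zfp36l2, an adjusted p under 0.05 (adjusted p = 0.0209), against 7.02% of the 15860 genes to which it gave one. The median log2 fold change of the 10 was 0.01, as over all genes (0.01).

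Among the ZFP36 genes, Zfp36l2 (ENSMUSG00000045817, chromosome 17, 84183931-84187947, minus strand) had the largest fold change. It had 173, 153 and 65.4 CPM in f/f BMDMs and 310, 294 and 313 CPM in MKO BMDMs. The groups were separate, the MKO libraries lay within a narrow band, and f/f replicate 3 was the lowest of the 6. This gave a log2 fold change of 1.23 (SE 0.36, with an edgeR adjusted p = 0.222), a 2.34-fold higher level, and 0.90 without f/f replicate 3. Zfp36l1 had 93.8, 107.5 and 99.1 CPM in f/f BMDMs and 143, 111 and 225 CPM in MKO BMDMs. Here too the groups were separate, but by little, since MKO replicate 2 lay just above the highest f/f library. Its log2 fold change was 0.67 (SE 0.27, edgeR adjusted p = 0.269), and 0.34 without MKO replicate 3. Zfp36 (ENSMUSG00000044786, chromosome 7, 28376784-28380253, minus strand), whose protein is the best known of the family in macrophages, had 262, 113 and 474 CPM in f/f BMDMs and 129, 111 and 287 CPM in MKO BMDMs. The groups overlapped, with replicate 3 the highest in each genotype. The log2 fold change of Zfp36 was -0.69 (SE 0.59, edgeR adjusted p = 0.542), and it was -0.11 without f/f replicate 3 and -1.24 without MKO replicate 3.

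Of the BTG and TOB genes, Btg1, an antiproliferative gene of quiescent cells, had the highest level per kilobase of exon. It had 509, 618 and 898 CPM in f/f BMDMs and 254, 243 and 534 CPM in MKO BMDMs. MKO replicate 3 lay above the lowest f/f library, and the other 2 MKO libraries lay well below all of them. The fitted log2 difference of Btg1 was -0.97 (SE 0.39, edgeR adjusted p = 0.269), and -0.72 without f/f replicate 3. Btg2, a target of p53, had 48.7, 47.7 and 69.7 CPM against 28.7, 25.5 and 84.5 CPM in MKO BMDMs. The highest and the lowest values were both in MKO libraries, and the log2 fold change of -0.26 (SE 0.48) was smaller than its error. It was -1.03 without MKO replicate 3. Tob1, with the lowest mean of the 10 per kilobase, was at 5.77, 11.6 and 6.64 CPM in f/f and 7.91, 8.96 and 12.3 CPM in MKO BMDMs, with overlapping groups and a log2 fold change of 0.28 (SE 0.32) that was 0.07 without MKO replicate 3. Tob2 had 34.9, 31.1 and 45.6 CPM in f/f and 49.5, 43.7 and 59.7 CPM in MKO BMDMs. Its groups overlapped in 1 pair of libraries, f/f replicate 3 and MKO replicate 2, and the log2 fold change was 0.46 (SE 0.19, edgeR adjusted p = 0.282).

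Ier3 (ENSMUSG00000003541, chromosome 17, 35821684-35822923, plus strand) had the largest error of its fold change. It had 129, 149 and 620 CPM in f/f BMDMs and 54.9, 38.1 and 167 CPM in MKO BMDMs. Replicate 3 was the highest in each genotype, and MKO replicate 3 lay above 2 of the 3 f/f libraries. The fitted log2 difference was -1.78 (SE 0.82, edgeR adjusted p = 0.308) and -0.68 without f/f replicate 3 or -2.68 without MKO replicate 3. Ier2 had the same order of libraries at its ends, with 41.2, 35.2 and 105 CPM in f/f and 22.4, 17.7 and 40.9 CPM in MKO BMDMs. The log2 fold change of Ier2 was -1.16 (SE 0.51, edgeR adjusted p = 0.294) and -0.51 without f/f replicate 3. Ier5 went the other way, with 74.2, 57.4 and 70.5 CPM in f/f and 95.4, 81.3 and 80.1 CPM in MKO BMDMs. The groups were separate, at a log2 fold change of 0.34 (SE 0.15, with an edgeR adjusted p = 0.287) that was 0.38 without f/f replicate 3.

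**Figure D1:**
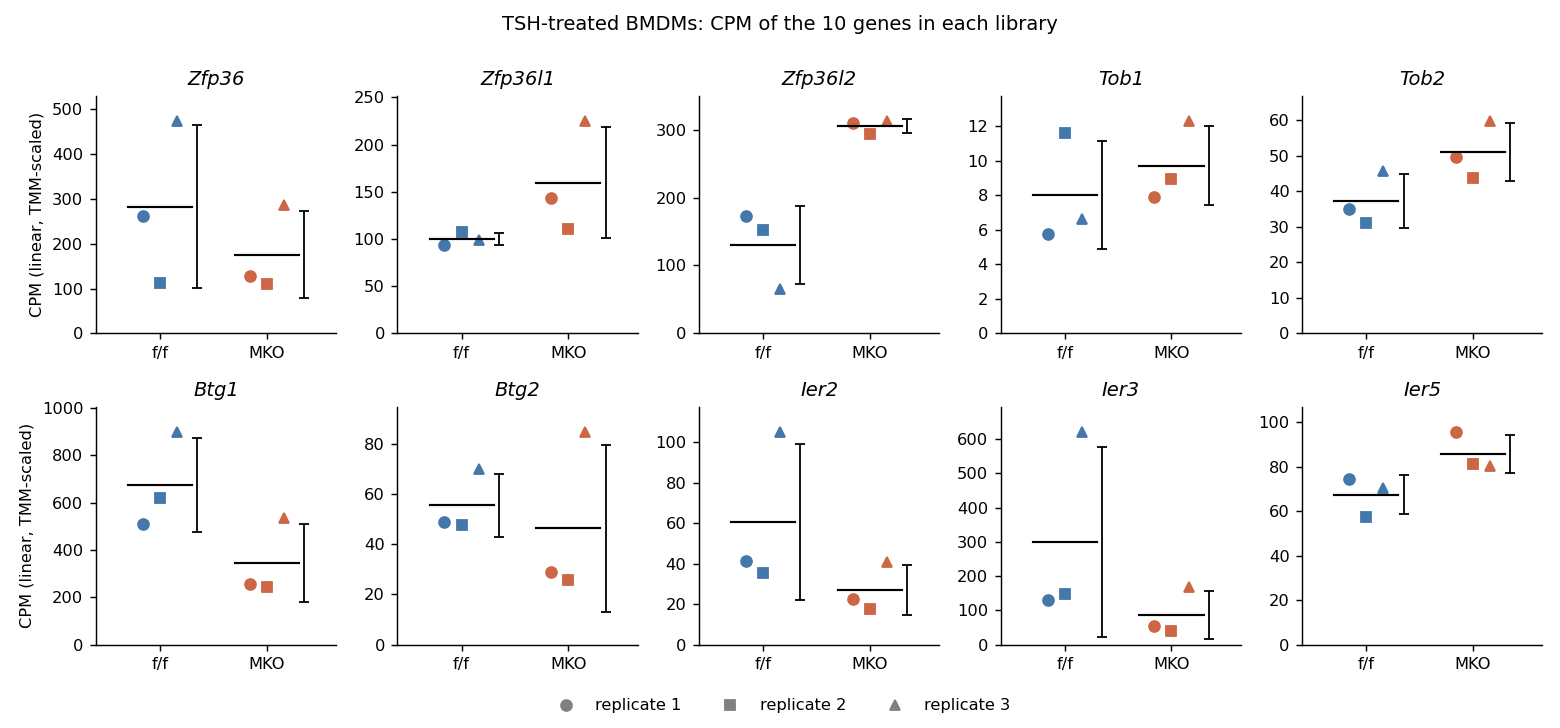
CPM (linear axis from 0, 1 scale per gene) of the 10 genes in the 6 BMDM libraries, with the marker shape giving the replicate number, the line the mean and the bar the SD of n = 3. Zfp36l1, Zfp36l2 and Ier5 sit higher in all MKO libraries, and replicate 3 of f/f is the highest of the 6 for Zfp36, Btg1, Ier2 and Ier3.

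The count of genes with separate groups in BMDMs was 3 of 10 with MKO higher, against 14.8% of all genes, and 0 of 10 with MKO lower, against 14.0%. Under a second call rule, an unadjusted p under 0.05 with a fold change of at least 2, 1 of 10 was higher, Zfp36l2, against 3.30% of all genes, and 0 of 10 were lower, against 5.52%. Without f/f replicate 3 no gene of the 10 was past that rule, and without MKO replicate 3 the count was 5: Zfp36l2, Btg1, Btg2, Ier2 and Ier3. Macrophage markers summed to 14459 to 16065 CPM in f/f and 19800 to 29047 CPM in MKO BMDMs, with 6 of 6 detected in each group, and neutrophil markers to 5.75 to 45.9 CPM and 4.93 to 11.9 CPM, with 6 of 6 detected in each group. The neutrophil sum was mostly S100a8, at 5.22, 29 and 45.6 CPM in f/f and 3.08, 3.55 and 8.80 CPM in MKO. Mpo and Retnlg went the other way, higher in every MKO library than in any f/f library. Markers of stellate cells or fibroblasts summed to 521 to 1344 CPM in f/f and 323 to 554 CPM in MKO BMDMs. Most of that was Col1a1 and Dcn, while Lrat was at 0. The part of these markers in the differences was not tested. Lyz2, where the Cre sits in this line, was among the macrophage markers and had 8773 to 9843 CPM in f/f and 14537 to 22320 CPM in MKO BMDMs. It made up most of the macrophage sum. Of the others, Adgre1 was lower in MKO, at 1137, 1089 and 1008 CPM against 1162, 1272 and 1536 CPM in f/f. Csf1r, Cd68, Itgam and Mertk had overlapping groups.

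In the livers all 10 genes had a negative log2 fold change, lower in the group labelled MKO, with the highest value of each in a liver labelled f/f. The median was -0.55, against -0.01 over all genes. In edgeR 0 of 10 passed an adjusted p of 0.05, and so did 0% of the 15062 genes tested, while DESeq2 gave 3 an adjusted p under 0.05, Tob1, Zfp36l2 and Ier2, against 1.80% of the 12645 genes to which it gave one. At an unadjusted p under 0.05, 6 of 10 were lower, against 5.18% of all genes, and 0 were higher. The groups were separate with MKO lower for 5 of 10, Zfp36, Zfp36l2, Tob1, Btg1 and Ier2, against 7.74%. In whole liver, fewer cells of a type and less RNA per cell cannot be told apart.

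Tob1 (ENSMUSG00000037573, chromosome 11, 94211454-94215495, plus strand), an antiproliferative gene, showed the largest difference. It had 174, 151 and 171 CPM in livers labelled f/f and 89.2, 77.4 and 84.2 CPM in livers labelled MKO. The groups were far apart compared with the spread within them. As a log2 fold change it was -0.99 (SE 0.10, unadjusted p = 2.68e-05, edgeR adjusted p = 0.151), a 1.98-fold lower level. Over edgeR fits without 1 library the adjusted p of Tob1 ran from 0.0486, with f/f replicate 2 left out, to 0.534. Tob2, the closest relative of Tob1, had 79.3, 101 and 69.1 CPM against 74.3, 66.3 and 68.5 CPM, with overlapping groups and a log2 fold change of -0.26 (SE 0.15). Btg1 had 40.2, 47.6 and 41.4 CPM in livers labelled f/f and 33.9, 33.0 and 33.2 CPM in those labelled MKO. Its groups were separate, and the 3 lower libraries were almost level. The fitted log2 difference was -0.37 (SE 0.09, edgeR adjusted p = 0.334). Btg2 had 50.7, 47.3 and 31.4 CPM against 19.6, 22.5 and 40.4 CPM, and the groups overlapped in 1 pair of livers. Its log2 fold change was -0.65 (SE 0.31, edgeR adjusted p = 0.515).

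Zfp36l2 had 53.3, 56.3 and 40.7 CPM in livers labelled f/f and 22.4, 28.9 and 34 CPM in livers labelled MKO. The groups were separate, in the order opposite to that in BMDMs. As a log2 fold change it was -0.82 (SE 0.19, edgeR adjusted p = 0.331). Zfp36 had 141, 150 and 125 CPM against 111, 104 and 116 CPM, also with separate groups, at a log2 fold change of -0.33 (SE 0.10, with an edgeR adjusted p = 0.371). Zfp36l1 had 129, 108 and 149 CPM against 58.2, 79.3 and 125 CPM, with the liver labelled MKO replicate 3 among those labelled f/f. The log2 fold change of Zfp36l1 was -0.56 (SE 0.28, edgeR adjusted p = 0.536).

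Of the immediate-early genes, Ier5 and Ier3 had the lowest means of the 10 per kilobase in liver, and Ier2 ranked above them. Ier2 had 19.4, 19.4 and 20.1 CPM in livers labelled f/f and 11.8, 15.4 and 13.0 CPM in those labelled MKO. The groups were separate, with the first group nearly level, at a log2 fold change of -0.55 (SE 0.12, with an edgeR adjusted p = 0.315). Ier5 had 8.80, 7.42 and 5.71 CPM against 4.75, 5.76 and 4.28 CPM. The Ier5 groups overlapped by 1 pair of nearly equal values, and the log2 fold change was -0.57 (SE 0.22, edgeR adjusted p = 0.439). Ier3 had 21 to 65 counts per liver, or 1.52, 0.579 and 1.79 CPM against 0.950, 1.55 and 1.24 CPM, and its log2 fold change of -0.05 (SE 0.47) was far smaller than its error.

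**Figure D2:**
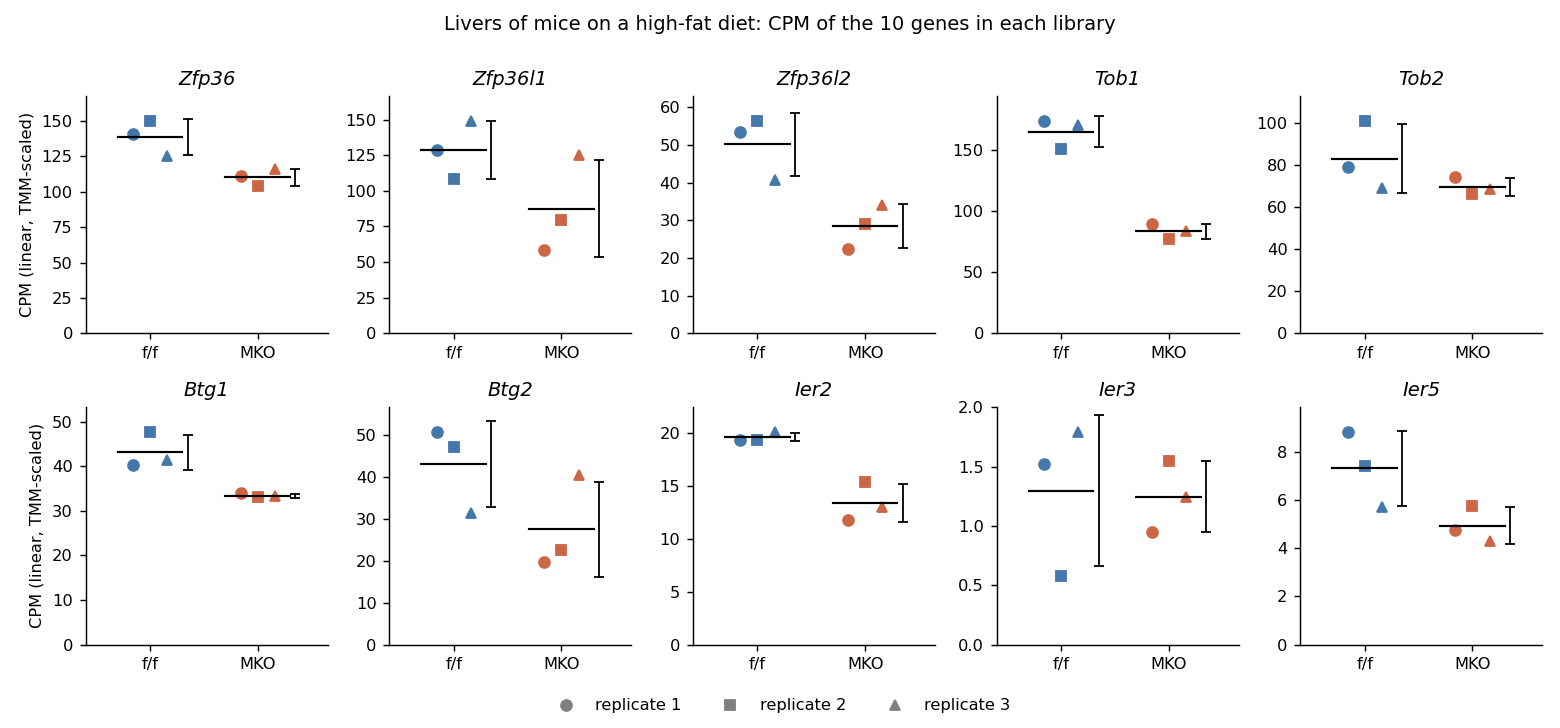
CPM (linear axis from 0, 1 scale per gene) of the 10 genes in the 6 livers, by the group the labels give, with the marker shape giving the replicate number, the line the mean and the bar the SD of n = 3. The highest value of every gene is in a liver labelled f/f, and Zfp36, Zfp36l2, Tob1, Btg1 and Ier2 have separate groups.

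Under the rule of unadjusted p and fold change, 0 of the 10 were past it in liver, against 0.856% of all genes lower and 0.690% higher. Hepatocyte markers summed to 75714 to 100280 CPM in livers labelled f/f and 92477 to 95422 CPM in those labelled MKO, neutrophil markers to 6.30 to 66.9 CPM and 7.21 to 14.8 CPM, and endothelial markers to 45.6 to 157 CPM and 96.7 to 144 CPM. In the same order, macrophage markers summed to 120 to 306 CPM and 125 to 287 CPM, and those of resident liver macrophages to 223 to 590 CPM and 195 to 503 CPM. Cholangiocyte markers summed to 8.56 to 13.3 CPM and 7.40 to 9.81 CPM, and markers of stellate cells or fibroblasts to 29.8 to 263 CPM and 98.3 to 144 CPM. In each of these lists 0 markers were at 0 in either group. These ranges overlapped, and their part in the differences was not tested. Lyz2 had 27.7, 59.9 and 44.7 CPM in livers labelled f/f and 1.56, 106 and 43.7 CPM in livers labelled MKO.

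**Figure D3:**
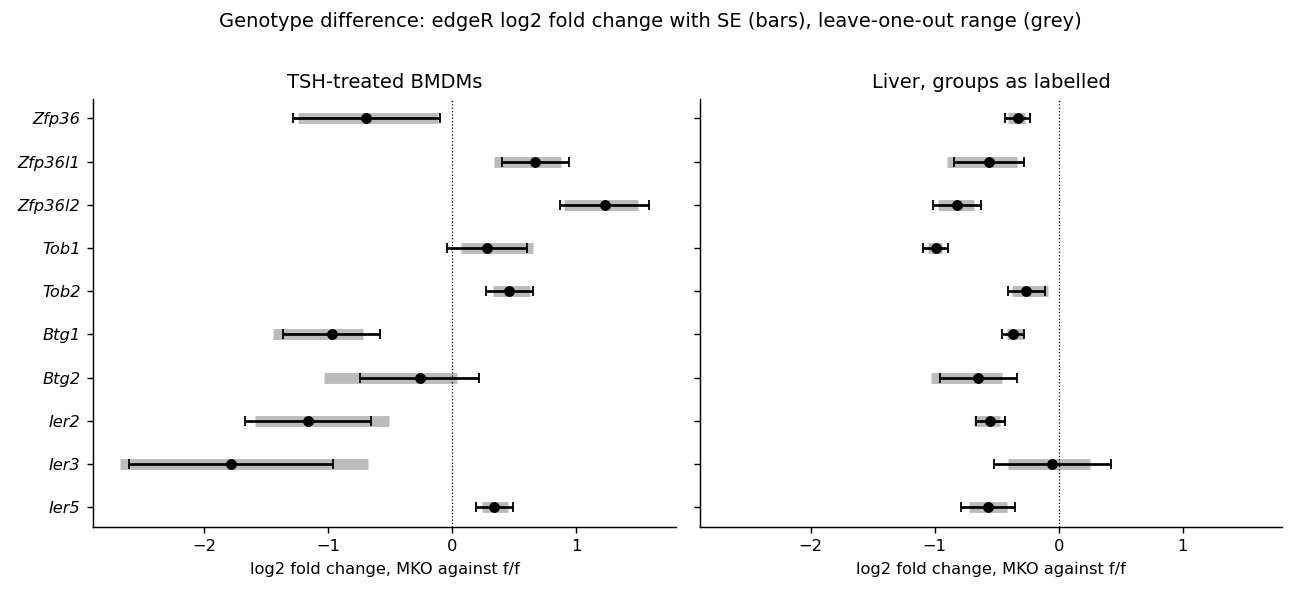
edgeR log2 fold change, MKO against f/f, of the 10 genes in BMDMs and in liver as labelled (x axis, log2), with the SE as bars and the range over fits that leave out 1 library in grey. In BMDMs the values run from -1.78 for Ier3 to 1.23 for Zfp36l2, and in liver from -0.99 for Tob1 to -0.05 for Ier3.

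The genotype difference itself was compared between BMDMs and liver by an interaction term over all 12 libraries. Given as the BMDM difference minus the liver difference, it was largest, with the livers as labelled, for Zfp36l2, at a log2 value of 2.04 (SE 0.43, unadjusted p = 6.86e-04, edgeR adjusted p = 0.129). Zfp36l2 was higher in each MKO BMDM library and lower in each liver labelled MKO. The value was 1.27 for Tob1 (SE 0.35, edgeR adjusted p = 0.189), 1.24 for Zfp36l1 (SE 0.42, edgeR adjusted p = 0.240), 0.90 for Ier5 (SE 0.26, edgeR adjusted p = 0.202) and 0.71 for Tob2 (SE 0.27, edgeR adjusted p = 0.284). These 5 of 10 had an unadjusted p under 0.05, against 14.5% of the 17246 genes tested. In edgeR 0 of the 10 passed an adjusted p of 0.05, against 0.00580% of all genes, and DESeq2 gave 3, Zfp36l2, Tob1 and Ier5, against 4.47% of the 15389 genes to which it gave an adjusted p. Over edgeR fits without 1 library the adjusted p of Zfp36l2 ran from 0.0469, without BMDM f/f replicate 3, to 0.308. That of Tob1 ran from 0.0211, without BMDM f/f replicate 2, to 0.361. For Zfp36, Btg1, Btg2, Ier2 and Ier3 the values were -0.36, -0.60, 0.40, -0.61 and -1.75, each with an unadjusted p above 0.05. If the liver headings noted above held, the sign of each liver term would turn, and Zfp36l2 would be higher in MKO in both materials. With that sign turned, the value of Zfp36l2 was 0.43 on the log2 scale and those of Zfp36l1, Tob1, Tob2 and Ier5 lay between -0.68 and 0.22. The turned values farthest from 0 were those of Ier3 (-1.79), Ier2 (-1.69) and Btg1 (-1.32). The places of Zfp36l2, Ier2 and Btg1 in that order therefore rest on the liver labels, while Ier3 hardly moved. Without BMDM f/f replicate 3 the BMDM differences of Ier3, Ier2 and Btg1 were smaller, at -0.68, -0.51 and -0.72. The turned values were given no test.

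The levels of the 10 genes were also compared between BMDMs and liver. In the 6 f/f libraries, as labelled, 3 of 10 were higher in BMDMs at an adjusted p under 0.05 in edgeR, against 29.6% of the 15931 genes tested, and 3 of 10 were lower, against 33.8%. By the labels genotype was shared, which the liver headings noted above leave unsettled. Culture, TSH, age, diet, fasting and insulin differed with the material and cannot be told apart from it. Higher in BMDMs were Ier3, at a log2 difference of 6.97 (SE 0.92, edgeR adjusted p = 0.00103), Btg1, at 3.08 (SE 0.28, edgeR adjusted p = 2.34e-04), and Ier5, at 2.32 (SE 0.21, edgeR adjusted p = 2.26e-04). Lower in BMDMs were Tob1, at -5.26 (SE 0.34, edgeR adjusted p = 6.68e-05), a 38.3-fold lower level, Tob2, at -2.05 (SE 0.23, edgeR adjusted p = 5.36e-04), and Zfp36l1, at -1.25 (SE 0.18, edgeR adjusted p = 0.00138). Zfp36 (0.14), Zfp36l2 (0.49), Btg2 (-0.53) and Ier2 (0.73) did not pass. Without BMDM f/f replicate 3, Zfp36l2 (0.83, edgeR adjusted p = 0.00962) and Btg2 (-0.71, edgeR adjusted p = 0.0387) passed, Ier2 was at 0.09 and Zfp36 turned to -0.44. Scaling by library totals alone moved the median gene by 0.83 toward BMDMs, and there Zfp36l1 no longer passed (-0.42), Zfp36l2 (1.40) and Ier2 (1.43) passed, and Btg2 turned to 0.27.

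Per kilobase of exon, the order of the genes differed between the materials. Exon length counted every base that is exon in any annotated transcript. For Zfp36 this was the whole span of 3470 bases, so its level may be understated and its place in the order rests on the annotation. In f/f BMDMs the highest means were 194 ± 181 CPM per kb (SD, n = 3) for Ier3, 93.8 ± 28.1 for Btg1 and 60 ± 38.7 for Zfp36, and the ranges of these neighbours overlapped. Ier2 (29.2), Zfp36l2 (27.1) and Zfp36l1 (24.6) followed with overlapping ranges, then Ier5 (15.1) and Btg2 (14.8), and Tob2 (4.10) and Tob1 (2.56) came last. In livers labelled f/f, Tob1 came first at 97.8 ± 6.80 CPM per kb (SD, n = 3), with its lowest library above the highest of the next gene. Zfp36l1 (58.2 ± 9.36) and Zfp36 (54.1 ± 5.11) followed and overlapped. Then came Btg2 (21.2), Zfp36l2 (19.2), Ier2 (17.5) and Tob2 (16.9), with overlap between neighbours among them. Btg1 (11), Ier5 (3.01) and Ier3 (1.55) were last, apart from Tob2 and from one another. Zfp36l2 was first in MKO BMDMs, at 64.0 ± 2.65 CPM per kb (SD, n = 3), with a range within that of Ier3, and Tob1 was first in livers labelled MKO, at 49.8 ± 3.46 CPM per kb (SD, n = 3).

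**Figure D4:**
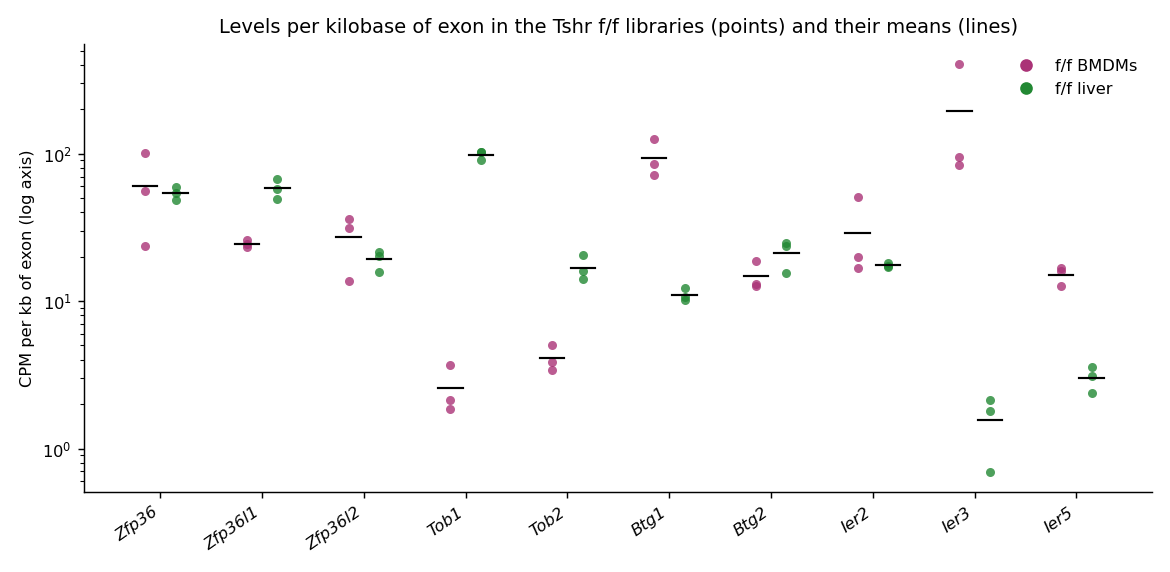
Levels of the 10 genes in CPM per kb of exon (log axis) in the 3 f/f BMDM libraries and the 3 livers labelled f/f, 1 point per library, with the mean as a line. Ier3, Btg1 and Ier5 lie higher in all BMDM libraries and Tob1, Tob2 and Zfp36l1 in all livers.

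The other genes of the pathway were read from lists of textbook members. The lists were chosen with earlier results of these data known, so counts over them are a description. The first list is mostly proinflammatory cytokines and chemokines, and the study reports many such cytokines as lower in these MKO BMDMs. Its counts are therefore no separate support. Of the 12 mRNAs listed as bound by ZFP36, which are cytokine, chemokine and Ptgs2 mRNAs, 6 held the nonamer TTATTTATT in their longest 3' UTR. In BMDMs all 12 had a lower fitted level in MKO and 11 were past the rule of unadjusted p and fold change, against 5.52% of all genes, with separate groups for 9, against 14.0%, and an adjusted p under 0.05 for 0 in edgeR. DESeq2 gave an adjusted p to 7 of the 12, which was under 0.05 for 5 (Tnf, Il1b, Il23a, Cxcl2 and Ccl3), against 7.02% of all genes given one. The median log2 fold change was -5.34, or -4.97 with Il23a, at most 2 counts in each MKO library, set to its bound, against 0.01 over all genes. Tnf, the best known target of ZFP36, had 973, 92.5 and 6441 CPM in f/f and 66.3, 61.2 and 84.0 CPM in MKO BMDMs, at a log2 fold change of -5.15 (SE 1.45). Cxcl1, a neutrophil chemokine, had 164, 136 and 1782 CPM against 10.7, 7.65 and 26.6 CPM, at -5.53 (SE 1.29). The highest library for both was f/f replicate 3, several fold above the others. Il6 (-9.16, SE 2.13), Ptgs2 (-7.45, SE 1.94) and Il1a (-5.67, SE 1.60) also had separate groups, and without f/f replicate 3 the list had 7 genes past the rule and a median of -2.88. In liver 6 of the 12 were tested and 1 was past the rule, Il1a, against 0.690% of all genes higher. Il1a had 1.18, 2.56 and 1.76 CPM in livers labelled f/f and 4.30, 4.69 and 2.65 CPM in those labelled MKO.

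The deadenylation and decapping machinery that these proteins bring in was tested as 22 genes. Of these, 0 were past the rule of unadjusted p and fold change in BMDMs or in liver. An adjusted p of 0.05 was passed by 0 in either material, in edgeR or in DESeq2. At an unadjusted p under 0.05, 1 was lower in MKO BMDMs and 1 higher, against 10.2% and 7.73% of all genes. In liver 0 had such a p. In BMDMs 1 of the 22 had separate groups with MKO lower and 2 with MKO higher, against 14.0% and 14.8% of all genes. The 2 with an unadjusted p under 0.05 in BMDMs were Cnot6l, a deadenylase, with a log2 fold change of 0.55 (SE 0.18), and Cnot7, with -0.37 (SE 0.14), both with separate groups. Cnot7 is another deadenylase of the complex, which binds BTG and TOB proteins. The lowest p in liver were those of the decapping enzyme Dcp2, 0.33 (SE 0.15), and of Cnot10, 0.20 (SE 0.09). Of 12 other regulators of AU-rich or stem-loop mRNAs, 2 were past the rule in BMDMs, both lower in MKO, against 5.52% of all genes lower. They were the ribonuclease genes Zc3h12c, at -2.25 (SE 0.59), and Zc3h12a, at -2.09 (SE 0.77). Zc3h12a, which encodes regnase-1, had 71.4, 68.1 and 399 CPM in f/f and 38.3, 29.3 and 58.7 CPM in MKO BMDMs, and its value was -0.73 without f/f replicate 3, where 1 of the 12 was past the rule. In liver 0 of the 12 were past the rule, and the lowest p were those of Zc3h12a, at -0.88 (SE 0.27), and Tial1, at 0.19 (SE 0.08). Of 4 other genes of these families 2 were tested. Btg3, a relative of Btg1 and Btg2, was past the rule in BMDMs at -1.54 (SE 0.56), against 5.52% of all genes lower. It was at -0.59 without f/f replicate 3, where 0 of the 2 were past the rule. In liver Btg3 was past the rule at -1.40 (SE 0.50, edgeR adjusted p = 0.43), against 0.856% of all genes lower. It had 15.4, 3.53 and 11.7 CPM in livers labelled f/f and 3.63, 4.64 and 3.33 CPM in those labelled MKO. The groups overlapped, and the direction rests on the liver labels.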

How the data were processed

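RNA of 6 BMDM and 6 liver samples had been made into strand-specific libraries, and the authors deposited a table of raw read counts per gene. Reads had been handled with Skewer and FastQC 0.11.2. The submitters' processing notes also name STAR, StringTie and mm10, while the annotation release and the use of strand in counting are not given in the sources used here. Of 55335 genes, 55154 matched GENCODE M21 (GRCm38), which gave positions, exon lengths and 3' UTRs, and RefSeq (GRCm38.p6) gave the promoter windows.

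The deposited counts went into the quasi-likelihood test of edgeR 4.0.16 (filterByExpr for low counts, TMM for scaling, robust fit; R version 4.3.3), and p-values were adjusted after Benjamini and Hochberg over all genes of a fit. BMDMs, livers, the Tshr f/f libraries of both materials and all 12 libraries (interaction term) were fitted separately. All 10 genes passed the filter in each fit. The biological coefficient of variation was 0.337 in BMDMs and 0.273 in liver. DEGseq's MARS model, which the study used, takes no spread between replicates and was not run. The second call rule keeps that study's thresholds (p of 0.05, fold of 2). The script was also run on simulated counts with planted changes, and no result here rests on that run. Alternatives were RLE, upper-quartile and no scaling factors, other filters on low counts, DESeq2 1.42.0, a replicate block, all 12 libraries in a fit, the first letter of the sample ID (liver) and each library left out. The genes named were the 10 and, of the lists, those past the second rule, at most 6 per list and comparison, or else the 2 with the lowest p. The 10 genes and the lists were chosen with earlier results of these data known. Tables and figures used pandas 2.3.3 and matplotlib 3.10.9.

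The methods give n = 3 male mice per group, but the labels do not tie each library to a separate mouse, so p-values measure the spread between libraries. No pair of libraries agreed within counting noise. The replicate numbers did not clearly pair the groups (correlation of the deviations of equal numbers 0.194, 0.047 and 0.128 in BMDMs and -0.094, 0.202 and -0.037 in liver). For unequal numbers the correlation ran from -0.223 to 0.176 in BMDMs and from -0.362 to 0.386 in liver. A gene at or under 3 counts in every library of a group is given as a bound.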

Additional observations from a re-analysis of the deposited data

Results flagged for a closer look

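Zfp36l2 had groups that did not overlap in either material, with the Tshr MKO libraries higher in BMDMs and lower in liver as labelled. The difference between both genotype effects was 2.04 on the log2 scale (SE 0.43, edgeR adjusted p = 0.129, DESeq2 adjusted p = 0.00105), seen in 3 of 3 Tshr MKO BMDM libraries and 3 of 3 livers labelled Tshr MKO. It ranged from 1.73 to 2.31 over fits without 1 library. The liver direction rests on the liver labels. With the liver sign turned, the value was 0.43, with no test.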

How the results depend on the processing

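Over 609 alternatives for the fold changes of single genes, 583 kept direction and side of the adjusted p of 0.05. Of the rest, 14 passed it only under the alternative, 1 lost it and 11 reversed. In the genotype and interaction fits 0 of the 10 passed as reported, so keeping the side says little there about size. Ier3 in BMDMs, for example, ran from -2.68 to -0.68 over fits without 1 library. Of 61 counts over the 10 genes, 48 stayed within 1.5 times and 13 moved. The cause was not tested for any of these.

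In BMDMs the count past the second rule, 1 as reported, was 3 with DESeq2, 3 with all 12 libraries in a fit and 4 with the replicate block (Zfp36l2, Btg1, Ier2 and Ier3), and it ranged from 0 to 5 over fits without 1 library: it was 0 when f/f replicate 3 was left out, 2 for f/f replicate 2 and 3 for f/f replicate 1, and with MKO replicate 3 left out 5. In liver it ranged from 0 to 1, with Tob1 past the rule when f/f replicate 2 or MKO replicate 1 was left out and Btg2 when MKO replicate 3 was. For the interaction the count at an adjusted p under 0.05, 0 as reported, was 3 with DESeq2 and 0 to 1 over fits without 1 library, 1 when BMDM f/f replicate 2 or 3 was left out.

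Leaving out 1 library gave both signs for Btg2 in BMDMs (-1.03 to 0.04), Ier3 in liver (-0.41 to 0.25), Zfp36 between BMDMs and liver (-0.44 to 0.53) and the interaction of Zfp36 (-0.92 to 0.24), Btg2 (-0.38 to 0.76) and Ier2 (-1.05 to 0.06). The replicate block, with numbers that did not clearly pair the samples, turned Ier3 in liver to 0.04 and Zfp36 between materials to -0.08. Library totals alone turned Btg2 between materials to 0.27, and they moved the median gene by 0.17 in BMDMs.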
